A study of Homo sapiens with 8 samples.

Results

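The sites described here are TAZ peaks that were called without doxycycline (Dox) and again after 72 h of Dox, with no peak over them at 24 h or 48 h. A site is a peak of the 72 h list that shares at least 1 bp with a peak of the no Dox list and none with the lists of 24 h and 48 h. There were 1290 such sites among the 38667 peaks of the 72 h list and the 55334 peaks of all 4 lists, and they made up 60.03% of the 2149 peaks at 72 h that had a no Dox partner. Of the 2431 no Dox peaks, 1294 (53.2%) lay under one of these sites. The sites were chosen by the measured peak calls themselves, so their presence and absence in the 4 lists, and their enrichment in the 2 lists that define them, are given as descriptions without a test.

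The data are chromatin immunoprecipitation and sequencing (ChIP-seq), which counts the DNA fragments recovered with a protein by an antibody. All cells were MCF10A, a non-transformed human mammary epithelial line, carrying a TAZ-4SA transgene that Dox switches on, also those that received no Dox. The groups were cells without Dox and cells given 0.05 µg/ml Dox over 3 times, 24, 48 and 72 h, and each had 1 TAZ library and 1 IgG library, 8 libraries in all. The antibody was raised against TAZ, so endogenous TAZ and any TAZ-4SA made without Dox cannot be told apart in the no Dox library, and the IgG signal at these sites was not tested. The value given for a peak is its fold enrichment, the ChIP signal at the summit over the local background. With 1 TAZ library per condition every difference is one between single libraries. In bulk chromatin, more cells bound and more binding per cell cannot be told apart.

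TAZ is a transcriptional co-activator of the Hippo pathway that lacks a DNA-binding domain. It reaches DNA through other proteins, above all the TEAD factors, which bind at distal enhancers together with AP-1. Promoters of widely expressed genes are a different kind of sequence: they are rich in CpG dinucleotides and in short elements bound by ETS factors such as GABPA, by SP and KLF proteins, by NFY, NRF1, YY1 and ZNF143. Such promoters often drive genes of mitochondria, translation, RNA processing and protein turnover, and many of them start a pair of genes in opposite directions.

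The reference sequence around the summits shows short words that recurred in these sites. The windows run up to 60 bases to each side of the 72 h summit and at most 50 bases past the start of the gene, on hg38 and 5′ to 3′ on the strand of the gene. The first 6 are promoters with high enrichment without Dox, chosen because they show the ETS core CCGGAAG or the word CGGAACC, called word A below. Capitals mark matches to either on either strand, where CTTCCGG and GGTTCCG are the reverse complements. They are EXOSC3 at chr9:37800692-37800812 on the minus strand, DMAP1 at chr1:44213361-44213481, METTL15 at chr11:28110216-28110336, FAM98B at chr15:38454060-38454177, VPS25 at chr17:42773355-42773475 and PSMF1 at chr20:1118457-1118577, the last 5 on the plus strand.
EXOSC3: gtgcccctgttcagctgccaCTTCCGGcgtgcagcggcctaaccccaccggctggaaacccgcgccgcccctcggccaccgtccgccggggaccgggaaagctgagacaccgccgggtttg
DMAP1: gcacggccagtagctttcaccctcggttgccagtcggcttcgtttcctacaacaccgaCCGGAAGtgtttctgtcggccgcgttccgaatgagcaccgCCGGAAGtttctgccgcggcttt
METTL15: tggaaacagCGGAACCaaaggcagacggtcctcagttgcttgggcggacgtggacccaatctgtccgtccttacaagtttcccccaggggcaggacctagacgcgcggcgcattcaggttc
FAM98B: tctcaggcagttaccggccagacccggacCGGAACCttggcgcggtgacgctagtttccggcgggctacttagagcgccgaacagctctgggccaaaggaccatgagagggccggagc
VPS25: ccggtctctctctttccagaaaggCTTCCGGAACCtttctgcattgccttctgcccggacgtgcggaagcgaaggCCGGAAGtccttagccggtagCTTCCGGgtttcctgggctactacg
PSMF1: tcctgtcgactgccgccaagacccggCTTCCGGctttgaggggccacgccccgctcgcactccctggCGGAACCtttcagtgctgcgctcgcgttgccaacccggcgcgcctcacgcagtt
In VPS25 an ETS core and word A shared bases in one run, and METTL15 and FAM98B had word A without the ETS core.

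The next 3 are promoters whose enrichment was much higher at 72 h, chosen because they hold ACTACAA, called word B below, with its reverse complement TTGTAGT. Word B is the start of the element known from ZNF143 sites. They are NUTF2 at chr16:67846810-67846930 on the plus strand, and BOD1 at chr5:173616689-173616809 and UCKL1 at chr20:63956511-63956631 on the minus strand. Capitals mark word B.
NUTF2: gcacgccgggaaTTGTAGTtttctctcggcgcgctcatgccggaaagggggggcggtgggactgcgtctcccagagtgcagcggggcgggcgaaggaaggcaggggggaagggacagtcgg
BOD1: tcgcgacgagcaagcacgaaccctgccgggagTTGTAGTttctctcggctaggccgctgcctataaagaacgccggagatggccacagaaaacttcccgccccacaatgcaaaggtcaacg
UCKL1: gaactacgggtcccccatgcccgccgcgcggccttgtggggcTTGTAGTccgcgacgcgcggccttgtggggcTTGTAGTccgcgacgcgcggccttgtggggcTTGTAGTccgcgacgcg
UCKL1 held 3 copies of word B in this window, each within the same repeated stretch.

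The last 2 are promoters with high ratios of 72 h to no Dox and no word B, shown for the core of the YY1 element, AAGATGG, with its reverse complement CCATCTT. They are DDX23 at chr12:48852128-48852248 on the minus strand and SLX4IP at chr20:10435154-10435274 on the plus strand. Capitals mark the YY1 core.
DDX23: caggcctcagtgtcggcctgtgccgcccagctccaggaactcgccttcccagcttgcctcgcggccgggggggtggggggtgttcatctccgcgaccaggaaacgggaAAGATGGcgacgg
SLX4IP: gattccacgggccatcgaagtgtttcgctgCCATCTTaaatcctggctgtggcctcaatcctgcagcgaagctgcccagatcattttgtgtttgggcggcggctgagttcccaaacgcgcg
The words were searched by exact letters, so a match is a description of the sequence and not a binding site. Words A and B were picked after the enrichments had been seen, and the values given for them below are descriptions on the same sites.

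The list without Dox held 2431 peaks, that of 24 h 2469, that of 48 h 11767 and that of 72 h 38667. The genome-wide background, which scales with depth, lay between 1.42 fragments in the 24 h library and 2.84 in the 48 h library, with 1.49 in the no Dox library and 2.01 in the 72 h library. Signal outside the called peaks was not used for 24 h and 48 h, so absence at these times means that no peak was called. All intervals here cover counting error only.

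The overlaps behind the choice were large for most sites. The shared stretch had a median of 561.5 bp (quartiles 451 and 697), and the no Dox summit lay inside the 72 h peak at 1262 sites (97.8%). Summits of the lists lay a median of 75 bp apart. The smallest overlaps were 4 bp at a site downstream of the NRP1 start and 5 bp at SAMD15, and the 72 h peaks that came nearest to a no Dox peak without touching it lay 19 bp away near HSPA6 and 33 bp away near GNG4. On the other side of the rule, the 24 h or 48 h peaks nearest to a site were 597 bp away at FTH1 and 745 bp away at RPS25, while GTF3C5 and USP5 were left out by overlaps of 297 and 298 bp with a peak of those times. The median gap to the nearest 24 h or 48 h peak was 68014 bp. When at least 50% of both intervals had to be shared with the no Dox peak, 669 sites remained, because peaks were wider at 72 h (median 1100.5 bp) than without Dox (595 bp), at 90.3% of the sites.

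Most of the sites were promoter-like. Of the 1288 sites on chromosomes 1 to 22, X and Y, 1178 (91.5%, interval 89.8 to 92.9) had their 72 h summit within 3 kb of a transcription start site (TSS), against 48.5% (47.9 to 49.1) of the 26214 peaks called at 72 h only and 41.6% (36.9 to 46.4) of the 435 peaks called in all 4 lists. Of the 251 peaks called without Dox only, the share was 36.3% (30.3 to 42.5). The authors placed most TAZ peaks without Dox in promoter regions, and each site overlaps a peak of that list. Only 2 sites lay in exons, 45 in introns and 63 between genes. The nearest TSS of the 1178 promoter sites belonged to a protein-coding gene in 1009 cases and to a long non-coding RNA in 147.

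The promoter sites sat closely on the TSS. Their summits lay a median of 45 bp from it (quartiles 17 and 132), against 139 bp (36 and 793) for promoter peaks of 72 h only, and 69.0% (66.3 to 71.6) were within 100 bp, against 44.04% (43.2 to 44.9). More summits lay upstream than downstream, 723 of 1178 (61.4%, interval 58.5 to 64.2), against 53.5% (52.7 to 54.4) of the promoter peaks of 72 h only. Of the promoter peaks of all 4 lists 59.1% (51.6 to 66.4) lay upstream, so this was not particular to the sites. The median signed position was 15 bp upstream.

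**Figure D1:**
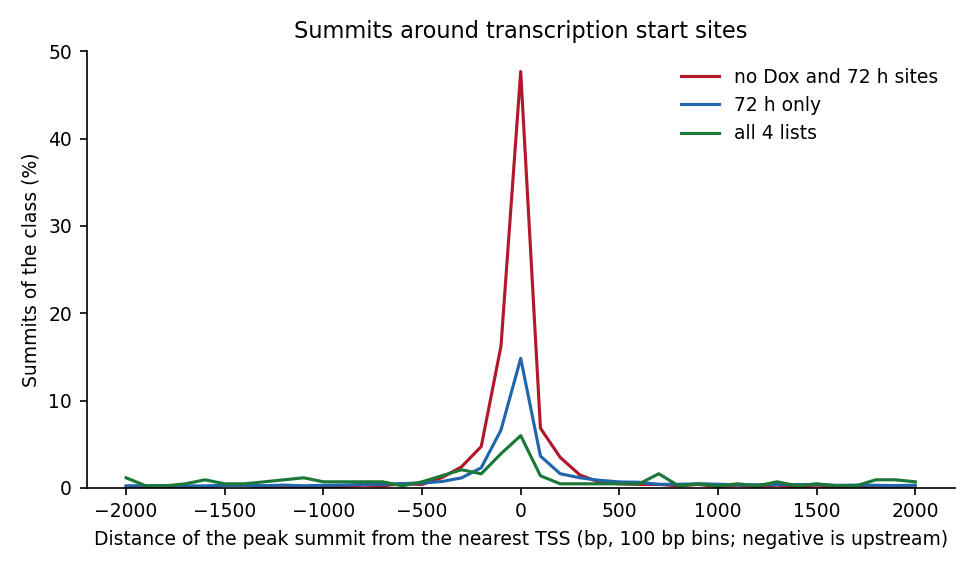
Share of summits in bins of 100 bp around the nearest TSS, in percent of each class, for the no Dox and 72 h sites, peaks of 72 h only and peaks of all 4 lists. The central bin holds 47.7% of the no Dox and 72 h sites.

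Promoters that start a pair of protein-coding genes in opposite directions were frequent. A divergent pair within 1 kb of the summit was present at 205 of 1178 promoter sites (17.4%, interval 15.3 to 19.7), against 7.54% (7.09 to 8.01) of promoter peaks of 72 h only and 3.31% (1.23 to 7.08) of those in all 4 lists. With non-coding genes counted as partners the shares were 36.8% (34.1 to 39.7) against 20.2% (19.5 to 20.9) for 72 h only. One such site served EXOSC3 and DCAF10, another LSM3 and XPC, another EIF2B1 and GTF2H3, and another SLX4IP and MKKS. A site between such a pair counts for both genes below, and nothing in the data assigns it to one of them.

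The promoter sites were also CpG-rich. In windows reaching 100 bp to each side of the 72 h summit they had a median GC content of 68.7% (quartiles 62.2 and 73.6), against 63.7% (52.2 and 71.1) for promoter peaks of 72 h only. The ratio of observed to expected CpG had a median of 0.885, against 0.718. Windows with a CpG ratio above 0.6 and a GC content above 50% made up 88.7% (86.8 to 90.5) of the promoter sites, against 57.3% (56.4 to 58.1). The local background that the peak caller used at 72 h was 2.34 times the genome-wide value at the promoter sites (median). At promoter peaks of 72 h only it was 1.92 times, and at those of all 4 lists 2.36 times. The promoter peaks of all 4 lists had a median GC content of 56.2% and a median CpG ratio of 0.375. A high background was thus not particular to the sites, and the part of this background in the calls was not tested.

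Enrichment at the sites was moderate and changed little in the middle of the class. The fold enrichment had a median of 8.46 at 72 h (quartiles 6.17 and 11.7, range 2.08 to 59.4), against 5.73 without Dox (4.64 and 8.80, range 2.02 to 47.0). The pileup at the summit had a median of 46 fragments at 72 h, against 20 without Dox. The ratio of fold enrichments, 72 h over no Dox, had a median of 1.26 (quartiles 0.878 and 1.89, range 0.194 to 8.92), and it was above 1 at 855 sites and below 1 at 435. At 285 sites (22.1%) the enrichment was at least 2-fold higher at 72 h, while 47.1% of all 72 h peaks with a no Dox partner were. It was at least 2-fold lower at 81 sites (6.28%), against 4.33% of all such peaks. The shared peaks outside the class were at least 2-fold higher in 84.6% of cases. Peaks called in all 4 lists had a median ratio of 5.20, those of no Dox, 48 h and 72 h one of 3.17, and those of no Dox, 24 h and 72 h one of 1.18.

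The class held most of the strongest no Dox peaks and few of the strongest 72 h peaks. Of the 244 no Dox peaks in the upper 10% by fold enrichment, 75.4% were overlapped by one of these sites, against 53.2% of all no Dox peaks. In the 72 h list, 72 of the 1290 sites (5.58%) were in the upper 10%. The rule leaves out 72 h peaks that were also called at 24 h or 48 h. Peaks of all 4 lists had a median fold enrichment of 33.6 at 72 h, against 8.46 at the sites. Those of no Dox, 48 h and 72 h had a median of 17.1. The part of the rule in the low share at 72 h was not tested. Across the sites the log2 enrichments of 72 h and no Dox had a Pearson correlation of 0.355 and a Spearman correlation of 0.342, over 1290 sites that share the same 2 libraries.

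**Figure D2:**
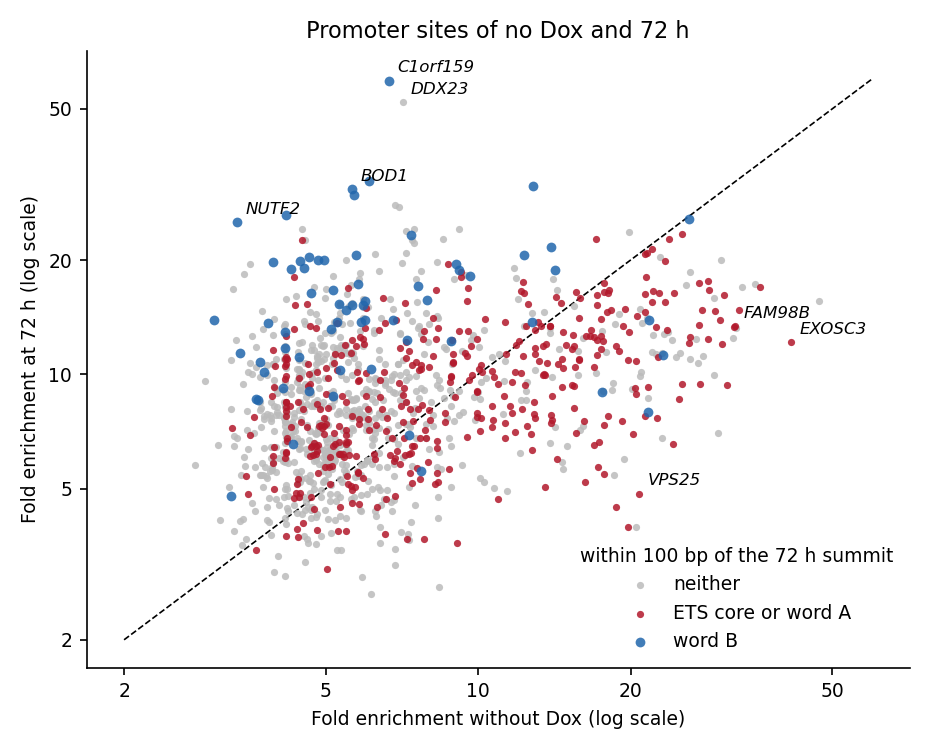
Fold enrichment at 72 h (vertical, log scale) against fold enrichment without Dox (horizontal, log scale) for the 1178 promoter sites, coloured by short words within 100 bp of the 72 h summit, with equality dashed. Sites with the ETS core or word A spread along the right, where enrichment without Dox is high, and the 64 sites with word B lie mostly above the dashed line, 57 of them with a ratio above 1.

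The strongest sites without Dox were promoters of genes with various functions. DPY19L4 had the highest value, with a fold enrichment of 15.6 at 72 h, against 47.0 without Dox. EXOSC3, a subunit of the RNA exosome that degrades and trims RNA, had a fold enrichment of 12.1 at 72 h, against 41.5 without Dox. Its summit pileup was 188 fragments (95% Poisson interval 162 to 217) without Dox, the highest of the sites, although that library had the lower background of the pair. DMAP1, a subunit of a histone acetyltransferase complex, had 17.0 at 72 h, against 36.1 without Dox. UBE3B, a ubiquitin ligase, had 17.3 at 72 h against 35.1 without Dox, and ITGB3BP, a centromere protein, had 16.9 against 33.2. METTL15, a methyltransferase of mitochondrial ribosomal RNA, had 14.7 at 72 h against 32.7 without Dox. These sites were all higher without Dox than at 72 h, but they were picked by their no Dox value, which favours this direction.

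The rest of the 10 highest without Dox had the same order. RAD54L2, a helicase, had 13.3 at 72 h against 32.3 without Dox. FAM98B, a partner of the tRNA ligase complex, had 13.4 against 32.1, and IPO4, an importin that carries cargo into the nucleus, had 13.3 against 32.0. NOP16, a nucleolar protein of ribosome assembly, had 12.5 against 31.9. Of these 10, the ETS core was present at EXOSC3, DMAP1 and IPO4 and word A at METTL15 and FAM98B.

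The strongest sites at 72 h were other promoters. C1orf159 had a fold enrichment of 59.4 at 72 h, against 6.65 without Dox. DDX23, a helicase of the U5 spliceosome particle, had 52.0 at 72 h against 7.10 without Dox, with 251 fragments (221 to 284) against 21. These are the 2 highest values of the class at 72 h. BOD1, which helps chromosomes attach to the mitotic spindle, had 30.8 against 5.64, and CRTC2, a co-activator of CREB, had 29.7 against 5.69. INTS9, a subunit of the Integrator complex that cleaves nascent RNA, had 32.4 at 72 h against 6.09 without Dox. UCKL1, a kinase of the uridine and cytidine family, had 31.3 against 12.8. All of these were higher at 72 h, the value they were picked by, which favours this direction.

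MORF4L1, a chromodomain protein of histone-modifying complexes, had 27.8 at 72 h against 6.85 without Dox, and TRABD had 27.6 against 6.98. TMEM143 had 26.2 against 4.17. MAF1, a repressor of RNA polymerase III, was the exception among the 10 highest at 72 h, with 25.7 at 72 h against 26.1 without Dox. Its summits lay 1103 bp apart and its 72 h summit was outside the no Dox peak, so these values are from different places. Word B was present at C1orf159, INTS9, UCKL1, BOD1, CRTC2, TMEM143 and MAF1, 7 of these 10, and DDX23 held the YY1 core.

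At the ends of the ratio stood sites of the same kinds. The highest were C1orf159 with 8.92, NUTF2, which imports Ran into the nucleus, with 7.53 (25.2 at 72 h, 3.35 without Dox), DDX23 with 7.33, TMEM143 with 6.30 and SLX4IP, a partner of the SLX4 nuclease scaffold, with 5.50 (19.5 at 72 h, 3.55 without Dox). The lowest were INTS5, another Integrator subunit, with 0.194 (3.97 at 72 h, 20.5 without Dox), ZNF580 with 0.201 (3.97 at 72 h, 19.8 without Dox) and VPS25, a subunit of the ESCRT-II sorting complex, with 0.234 (4.85 at 72 h, 20.8 without Dox). MRPL13 followed with 0.236 and CSTPP1 with 0.239. INTS5 and INTS9, subunits of the same complex, thus had opposite directions, INTS9 with a ratio of 5.32.

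Set against promoter peaks of 72 h only and of all 4 lists, the sites held more ETS words and fewer TEAD and AP-1 words. Within 100 bp of the 72 h summit, the ETS core CCGGAAG was present at 29.4% (26.8 to 32.1) of the 1178 promoter sites, against 9.74% (9.23 to 10.3) of the 12705 promoter peaks of 72 h only and 10.2% (9.79 to 10.6) of the windows on 1 start site of each protein-coding gene. The longer ETS word CCGGAAGT, which contains the core, was at 15.2% (13.2 to 17.4), against 3.94% and 4.51%. In windows 1 kb to the side of the same sites the core was found in 1.95%. Word A was at 13.8% (11.8 to 15.9) of the sites, against 3.31% (3.01 to 3.64) for 72 h only and 3.58% of gene starts. The ETS core or word A was at 442 sites (37.5%) and both at 66.

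The TEAD words ACATTCC and GCATTCC were at 6.88% (5.50 to 8.47) of the promoter sites, against 13.9% (13.3 to 14.5) of promoter peaks of 72 h only. They were at 64.1% of the 181 promoter peaks in all 4 lists. Gene starts had fewer than the sites, with 3.52%. The AP-1 words TGACTCA and TGAGTCA were at 3.48% (2.51 to 4.69), against 8.72% (8.24 to 9.23) for 72 h only and 2.62% of gene starts. The GC box core GGGCGG was at 62.1% (59.2 to 64.8) against 44.6% and 47.0%, and the SP and KLF word GGGGCGGGG, which contains it, at 18.8% (16.6 to 21.1) against 12.8% and 15.8%. The NFY word CCAAT was less frequent, at 14.8% (12.8 to 16.9) against 20.9% for 72 h only and 26.0% of gene starts, and so was TATAAA, at 1.53% against 3.68% and 7.09%. Some promoter words were thus more frequent than at other promoters and some less. The classes differed in base composition and TSS distance, and the part of these in the shares was not tested. Gene starts were the most upstream annotated TSS of each gene, with no filter for activity.

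**Figure D3:**
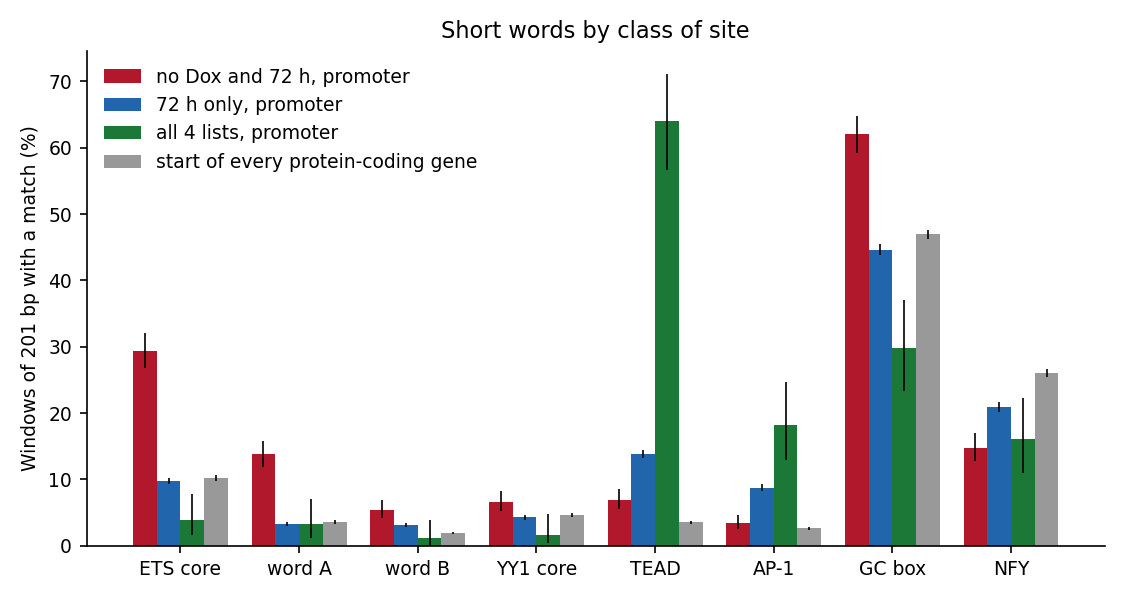
Share of windows of 100 bp to each side of the summit with a match, in percent with 95% exact intervals, for promoter sites of no Dox and 72 h (n = 1178), promoter peaks of 72 h only (n = 12705), promoter peaks of all 4 lists (n = 181) and gene starts (n = 20033). ETS core and word A are highest in the no Dox and 72 h sites, and TEAD and AP-1 in the peaks of all 4 lists.

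Among the other words, YY1 (AAGATGGCG) was at 3.06% of the promoter sites, against 1.85% for 72 h only and 2.04% of gene starts, and its core AAGATGG at 6.62% (5.27 to 8.20) against 4.27% and 4.66%. Word B was at 64 sites (5.43%, interval 4.21 to 6.89), against 3.08% (2.78 to 3.39) and 1.92%, and the longer ZNF143 word ACTACAATT, which contains it, at 8 sites (0.679%) against 0.488% and 0.245%. For this longer word the intervals of the sites (0.294 to 1.33) and of 72 h only (0.374 to 0.625) overlapped. The GATA factors’ word AGATAA was at 1.36% against 4.16% and 4.54%. The intervals of the sites and of 72 h only also overlapped for CRE (TGACGTCA, 1.70% against 1.61%), its part TGACGT (6.62% against 6.21%), NRF1 (GCGCATGCG, 1.78% against 1.24%), BANP (CTCGCGAG, 0.679% against 0.945%), the E-box CACGTG (6.71% against 6.42%), RUNX (TGTGGTT, 2.38% against 3.35%) and STAT (TTCCNGGAA, 0.764% against 1.20%). For the CTCF word AGGGGGC the shares were 12.8% (11.0 to 14.9) and 10.9% (10.4 to 11.5).

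At the no Dox summits the ETS core, word A and the TEAD words kept these directions. The ETS core was at 28.6% (26.0 to 31.2) of the 1183 no Dox promoter peaks under these sites, against 12.01% (9.02 to 15.6) of the 408 no Dox promoter peaks that were also called at 24 h or 48 h and 8.79% (3.87 to 16.6) of the 91 in no other list. Word A was at 13.5% (11.6 to 15.6), against 5.15% (3.21 to 7.76) and 5.49% (1.81 to 12.4). TEAD words went the other way, with 4.23% (3.15 to 5.53) at the sites, against 33.6% (29.0 to 38.4) where a 24 h or 48 h peak was called. In the 91 peaks of no other list they were at 5.49% (1.81 to 12.4), so a low TEAD share was not particular to the sites. The YY1 core was at 4.48% (3.37 to 5.82) of the no Dox promoter peaks under the sites, below the 4.66% of gene starts. Where a 24 h or 48 h peak was called it was at 2.70% (1.35 to 4.77). Word B was at 4.14% (3.08 to 5.44) against 2.70% (1.35 to 4.77) in these groups. For both words these intervals overlapped.

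Within the class the words followed enrichment without Dox. When the promoter sites were put in 4 groups of equal size by no Dox fold enrichment, the ETS core at the no Dox summit was at 11.9%, 19.3%, 34.8% and 48.8% of the sites, lowest group first. Word A was at 6.10%, 5.76%, 8.19% and 34.2%, so it stood out in the highest group alone, where the ETS core or word A was at 68.1% (62.5 to 73.4) of 295 sites. TEAD words were at 4.75%, 3.39%, 6.14% and 2.71%. Over all sites grouped in the same way, divergent pairs of protein-coding genes were at 12.4%, 12.4%, 14.9% and 23.9%, and the median distance to the TSS was 82.5, 100.5, 58 and 34 bp. The site selection used the no Dox calls, and these groups use their enrichment, so this is a description of how the class is made up.

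The words were also set against the ratio of 72 h to no Dox. The no Dox enrichment is the denominator of this ratio, so this is not separate from the grouping above. Sites with the ETS core had a median ratio of 1.05 (9.31 at 72 h, 7.66 without Dox), and sites without it one of 1.34. Sites with word A had a median ratio of 0.917 (9.47 at 72 h, 11.8 without Dox) against 1.32 without it. Sites with word B had a median ratio of 2.53 (14.99 at 72 h, 5.63 without Dox) against 1.22 without it, and 57 of the 64 were above 1 and 43 at least 2-fold higher at 72 h. The 81 promoter sites with a TEAD word had a median ratio of 1.86, against 1.22 for those without.

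With the promoter sites in 5 groups of equal size by ratio, the ETS core fell from group to group as the ratio grew: it was at 41.9% (35.6 to 48.5) of the sites with the lowest ratios, then 35.3%, 29.7%, 21.7% and 18.2% (13.5 to 23.7). Word A was at 25.4%, 20.0%, 9.32%, 7.66% and 6.36%. Word B was at 2.12%, 1.28%, 0.847% and 5.11% in the first 4 groups and at 17.8% (13.1 to 23.3) in the group with the highest ratios. The YY1 core was at 2.54%, 2.98%, 9.75%, 7.23% and 10.6%. These shares are for the 72 h summit. At the no Dox summit of the same groups the YY1 core was at 2.97%, 3.40%, 5.08%, 4.26% and 6.78%, with overlapping intervals. Word B was there at 11.9% (8.03 to 16.7) in the group with the highest ratios and at 3.83% or less in the others. The ETS core changed little, from 42.8% in the group with the lowest ratios to 18.2% in that with the highest. From the lowest ratios up, the median fold enrichment without Dox was 15.7, 7.31, 5.54, 4.87 and 4.69. At 72 h it was 8.03, 6.79, 7.02, 8.46 and 12.5. The median GC content of the groups ran from 66.4% to 70.6% with no order by ratio. The median local background at 72 h was 5.03 fragments in the group with the lowest ratios and 4.44 in that with the highest, and without Dox it was 2.47 and 2.84 in these groups. The background enters the ratio, and its part in these shares was not tested.

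**Figure D4:**
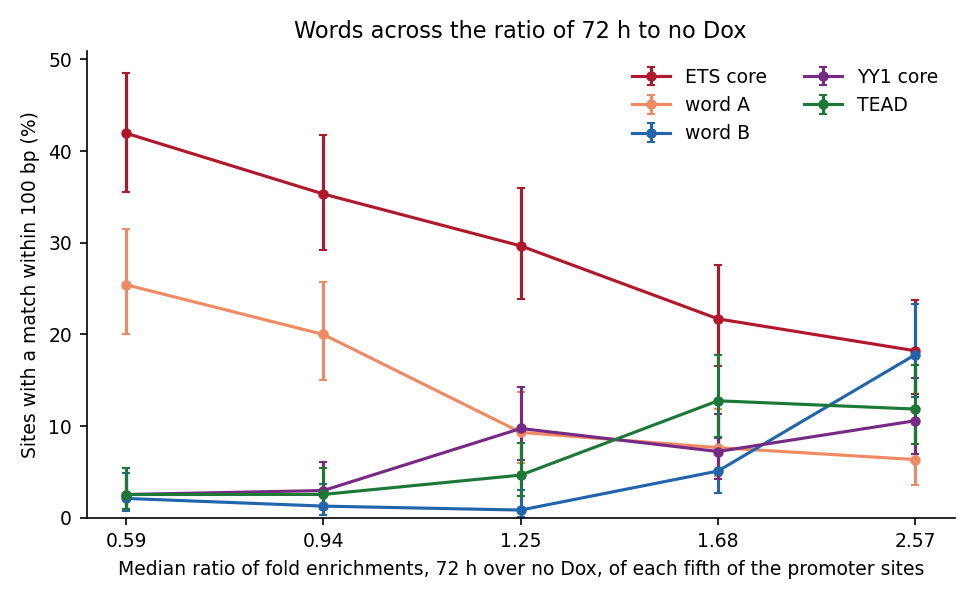
Share of promoter sites with a word within 100 bp of the 72 h summit (percent, with 95% exact intervals) in 5 groups of equal size by the ratio of fold enrichments, 72 h over no Dox, placed at the median ratio of each group. ETS core and word A are most frequent at ratios below 1, and word B in the group with a median ratio of 2.57.

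The genes at these sites were counted in full and in lists. A site lay within 3 kb of a TSS of 1426 of 20007 protein-coding genes (7.13%), and any 72 h peak did so for 11696 (58.5%). Of the genes with a site, 26 (1.82%) also had a separate 24 h peak within 3 kb and 116 (8.13%) a separate 48 h peak, near the shares of all protein-coding genes with a 24 h peak (2.55%) or a 48 h peak (9.10%). Of 30 gene lists, the RNA exosome and decay list had a site at 7 of 28 genes (25%), mitochondrial ribosomal proteins at 19 of 79 (24.1%), the proteasome at 11 of 50 (22%) and the spliceosome at 18 of 84 (21.4%). Aminoacyl-tRNA synthetases had one at 7 of 37 (18.9%), Mediator at 5 of 30 (16.7%), chromatin remodelling and histone modification at 11 of 66 (16.7%), mitochondrial import and chaperones at 5 of 31 (16.1%) and RNA polymerases with general transcription factors at 15 of 95 (15.8%). These lists also had 72 h peaks of any class at 78.9% to 96.4% of their genes, above the 58.5% of all genes.

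Mitochondrial ribosomal protein genes, whose products build the ribosome of mitochondria, had a higher median without Dox, as did the RNA exosome and decay list (12.2 at 72 h, 17.7 without Dox) and the tRNA and rRNA modification list (10.2 at 72 h, 15.6 without Dox). The 19 mitochondrial ribosomal genes had a median fold enrichment of 10.6 at 72 h, against 14.6 without Dox. MRPL13 had 7.02 at 72 h against 29.8 without Dox, MRPL1 7.52 against 19.3, MRPS31 11.3 against 23.2 and MRPL3 11.9 against 18.7. MRPL44 was nearly the same in both, with 22.8 at 72 h against 23.8 without Dox, and MRPL24 was higher at 72 h, with 19.5 against 9.06.

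RNA genes held both directions. In the exosome and decay list, SMG8, a regulator of nonsense-mediated decay, had 13.5 at 72 h against 27.3 without Dox. ZCCHC8, a subunit of the nuclear exosome targeting complex, had 10.1 at 72 h against 3.78 without Dox. In the spliceosome list, SF3A3, a subunit of the U2 particle, had 13.3 at 72 h against 22.5 without Dox, and AQR, a helicase, had 7.54 against 16.2, while LSM3 had 9.24 against 4.61. Among the enzymes of tRNA and rRNA modification (7 of 56, 12.5%), ADAT2, a tRNA adenosine deaminase, had 20.0 at 72 h against 30.2 without Dox, and CDK5RAP1 had 9.95 against 29.2. LARS1, the leucyl-tRNA synthetase, was among those higher at 72 h, with 20.0 against 4.97, and the mitochondrial threonyl-tRNA synthetase TARS2 had 9.19 at 72 h against 20.4 without Dox.

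Proteasome genes also held both directions. PSMC5, an ATPase of the regulatory particle, had 15.8 at 72 h against 4.17 without Dox, and PSMD11, a lid subunit, had 15.6 against 7.92. PSMF1, a proteasome inhibitor, had 14.8 at 72 h against 27.7 without Dox, and PSMG3, an assembly chaperone, had 11.5 against 18.9. The core subunits PSMA5 and PSMA6 had 3.77 and 6.42 at 72 h, against 3.90 and 3.95 without Dox. The median of the 11 genes was 11.5 at 72 h, against 4.86 without Dox.

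Cytosolic ribosomal proteins had a site at 11 of 88 genes (12.5%), and 10 of the 11 had a ratio above 1, as did 66.3% of all sites. Their median fold enrichment was 10.7 at 72 h against 5.15 without Dox, which is the denominator of the ratio. RPS3 had 18.2 at 72 h against 9.48 without Dox and RPS14 8.77 against 3.91, while RPL29 had 10.9 against 20.4. The respiratory chain list had 12 of 108 (11.1%): NDUFS3, a subunit of complex I, had 22.8 at 72 h against 17.1 without Dox, and NDUFC2, another, had 5.89 against 14.6. ZBTB and ZKSCAN zinc fingers had 8 of 66 (12.1%), DNA repair 7 of 58 (12.1%), DNA replication 6 of 51 (11.8%), mitosis and centrosome 7 of 65 (10.8%), other ZNF zinc fingers 52 of 508 (10.2%) and translation factors 6 of 63 (9.52%). These lists too had 72 h peaks of any class at more of their genes, 63.6% to 98.5%, than the 58.5% of all genes. The share with a site was near that of all genes for ubiquitin E2 and E1 enzymes (3 of 40, 7.5%), cilium and basal body genes (4 of 57, 7.02%) and the Hippo pathway with TEAD (3 of 39, 7.69%).

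**Figure D5:**
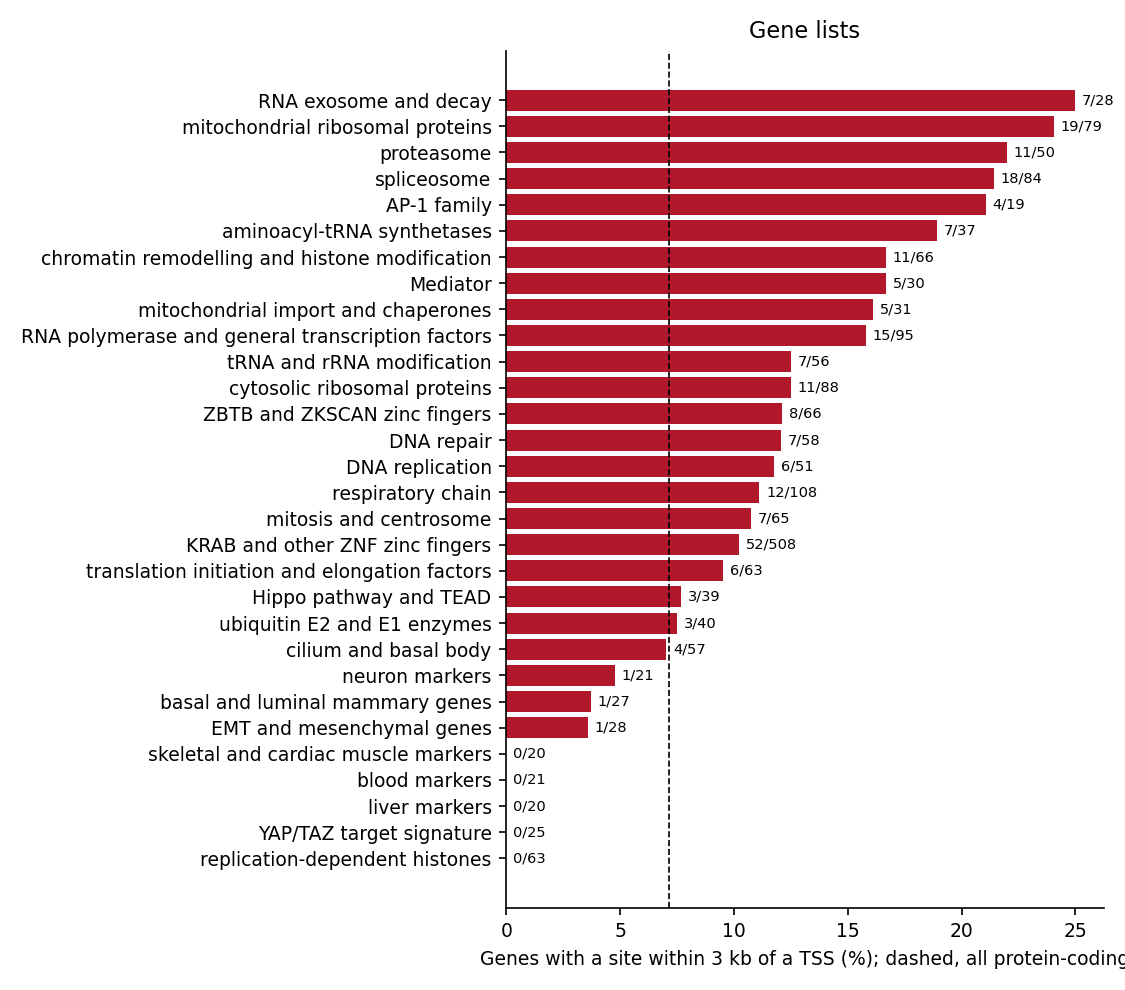
Percent of the genes of each list with a no Dox and 72 h site within 3 kb of a TSS, with the counts beside the bars and all protein-coding genes (7.13%) as a dashed line. Lists of RNA decay, mitochondrial ribosomes, proteasome and spliceosome lie above 20%, and the YAP/TAZ target signature and the histone genes are at 0.

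Of the 25 genes of a YAP/TAZ target signature none had such a site, where the share of all genes was 7.13%. Of these genes 10 had a no Dox peak, 10 a 24 h peak, 17 a 48 h peak and 24 a 72 h peak, and the rule leaves out sites with a peak at 24 h or 48 h, so nothing about the class is read from this count. In the Hippo and TEAD list the sites were at RASSF1, a scaffold of the MST kinases (5.78 at 72 h, 4.93 without Dox), the kinase STK3 (5.78 at 72 h, 5.87 without Dox) and the TEAD cofactor VGLL4 (4.75 at 72 h, 4.90 without Dox), all with a ratio near 1. The AP-1 family had a site at 4 of 19 genes (21.1%), which were ATF3 (9.73 at 72 h, 4.42 without Dox), ATF4 (9.95 at 72 h, 5.64 without Dox), FOSL2 (9.42 at 72 h, 3.43 without Dox) and JUND (9.05 at 72 h, 9.15 without Dox). None of the 63 replication-dependent histone genes had a site. Of markers of the mammary cell itself, ITGB4 had one (1 of 27), and of EMT and mesenchymal genes SPARC (1 of 28). Of marker lists of other tissues, neuron markers had 1 of 21, which was SLC17A7 with a summit 1492 bp upstream of its TSS, and liver, blood and muscle markers had none of 20, 21 and 20.

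The 110 sites away from promoters on these chromosomes were another kind of sequence. Their median distance to a TSS was 10469 bp and their median GC content 54.2%. TEAD words were at 20.9% (13.7 to 29.7) of them and AP-1 words at 24.5% (16.8 to 33.7), against 6.88% and 3.48% at the promoter sites, while the ETS core was at 5.45% (2.03 to 11.5). The strongest at 72 h was 4226 bp downstream of the C19orf67 start, with 25.01 at 72 h against 4.94 without Dox. The next lay 11484 bp from the start of MYO5B, a myosin motor, with 22.3 against 7.63. Another lay 49495 bp from FOXE1, a forkhead factor, with 18.0 against 5.62. Others lay 4254 bp from TMEM40, with 17.1 against 3.23, and 26522 bp from SOCS5, a suppressor of cytokine signalling, with 15.4 against 4.49. Nearer to the FOXE1 and SOCS5 sites were starts of the long non-coding RNAs PTCSC2 (6308 bp) and LINC01118 (12363 bp). At the SOCS5 site the summits of the lists lay 681 bp apart. These 5 were all higher at 72 h, the value they were picked by, and TMEM40 held an AP-1 word.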

How the data were processed

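TAZ ChIP-seq was analysed from 4 deposited peak lists, 1 per condition, in MCF10A cells. The authors trimmed the reads, mapped them to hg38 with BWA and called peaks with MACS2 at an FDR of 0.01, with versions not given in the sources used here; whether the IgG libraries served as the control of the caller is not stated. Per the deposited files, the caller wrote for each peak the fold enrichment (a ratio at the summit over the local background, with a pseudocount of 1), the summit offset, and −log10 p and −log10 q. The display score that the authors' caller also deposited was not used. There were 0 columns of other samples.

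Peaks were intersected with a minimum overlap of 1 bp. Fragments at the summit and local background were solved from fold enrichment and p, and 100% of the p-values were recovered within 0.003. Median summit pileups of the lists lay between 20 fragments (no Dox) and 36 (48 h), which limits the precision of each value. Summits were annotated with GENCODE version 44 (3 kb of any TSS counted as a promoter), and words were counted on both strands within 100 bp of the summit. With 1 TAZ library per condition no test was made. Shares carry 95% exact binomial intervals and fragments exact Poisson intervals, both for counting error only.

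The members, the 20 words, the 30 gene lists and the tests were chosen with earlier results of these data known, and words A and B after the values of these sites were seen. Named genes were the 10 highest without Dox and the 10 highest at 72 h, the 5 highest and the 5 lowest ratios, the 5 strongest sites outside promoters, genes of the lists, and sites at the edges of the rule. Python 3.11.15, numpy 2.4.6, pandas 2.3.3, scipy 1.17.1, pysam 0.24.0 and matplotlib 3.10.9 were used, and the steps were tested on simulated data. The alternatives were other overlaps and q-values, promoter distances, window sizes, summits, backgrounds and folds. The sequence of 1 site and the values of 1 gene are not reported here.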

Additional observations from a re-analysis of the deposited data

How the results depend on the processing

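Requiring 50% of both intervals to be shared left 669 of 1290 sites, while the other definitions gave 909 to 1289. The promoter share of 91.5% was 88.3% at 1 kb, 86.8% for protein-coding starts and, with −log10 q of at least 5, 93.9% for the no Dox and 72 h lists and 93.9% for all 4. With windows of 50 and 200 bp to each side, ETS was at 10.9% and 19.4%, the ETS core at 19.7% and 37.2%, TEAD at 5.01% and 10.2% and AP-1 at 1.95% and 5.26%, and the median GC content was 66.6% in the wider one. At the no Dox summit TEAD was at 4.24% and AP-1 at 2.04%, and word B, an alternative chosen after seeing the data, at 4.16%. The median ratio of 1.26 was 1.14 without the pseudocount and 1.43 over the genome-wide background, and the sites with a ratio above 1 were 769 and 928 in these settings, against 855, so some sites changed direction. Single genes, gene lists and word groups were not recomputed in these settings. At 1.5-fold, 473 sites were higher and 164 lower. Start sites on both strands within 500 bp were at 33.8% of promoter sites, against 40.5% within 1 kb. No paired analysis was possible because each condition had 1 TAZ library, and no library could be left out for the same reason. Sites with about 20 fragments without Dox carry wide counting intervals, and differences between single libraries have no replicate check.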
